A study of Mus musculus with 2 samples.

Results

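The genes described here are the cytosolic ribosomal protein genes, chosen by name alone. Symbols made of RPL or RPS, a number and at most a letter or a letter and a digit were taken, with the ribosomal protein S6 kinases (RPS6K) left out and RPLP0, RPLP1, RPLP2 and RPSA added. The rule found 54 of the 9330 genes in the count tables, 32 of the large subunit and 22 of the small subunit. The study profiled nuclei of right atria from adult mice with 10x Genomics single-nucleus RNA sequencing. One library came from Tbx5 G125R/+ mice, which carry 1 copy of Tbx5 with a glycine-to-arginine substitution made with CRISPR-Cas9 and expressed from its own locus, and the other came from control mice, which were wildtype. Each library held a pool of 3 right atria, 7000 nuclei sorted on DAPI were loaded, and the labels name no other treatment. With 1 library per genotype, no test between the genotypes was possible: each value is given for both libraries, with an exact 95% interval that covers counting error only, and nuclei are not replicates. Genotype and library preparation cannot be told apart.

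Every cell needs ribosomal proteins in nearly equal numbers: each cytosolic ribosome holds 1 copy of most of them, the large subunit carrying the centre that joins amino acids and the small subunit the site that reads the message. Their genes are transcribed at high rates, the messages are spliced and exported, and the mature messages sit in the cytoplasm. In mammals many of these messages start with a cytosine followed by an unbroken pyrimidine run, the 5′ terminal oligopyrimidine (TOP) motif, through which mTOR and LARP1 control their translation, and the elongation factor EEF1A1 shares that motif. Counts of such messages in a preparation of nuclei can come from transcripts still in the nucleus or from cytoplasmic RNA that was carried along, and the count tables do not separate them.

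The RefSeq promoter table of the mouse build GRCm38.p6 held an entry for 38 of the 54 members. A TOP-type run was searched on the sense strand as a C followed by at least 4 bases that are all C or T, beginning within 5 bases of the annotated start. It was found in 16 of the 38 members (42.1%), against 23.9% of the 6288 genes of the count tables with an entry and 18.3% of all 32851 promoters in the table. Among the members with at least 20 counts it was found in 11 of 26 (42.3%). Where a gene had several entries, a run in any of them counted, and the window shown comes from an entry with a run if there was such an entry. A match only describes these letters at the annotated start. The following 30-base windows hold 15 bases before and 15 from the annotated start. Capitals mark the run from the matching C nearest that start, and pyrimidines directly before this C stay in lower case. The windows are of abundant members of both subunits (RPL35A, RPL15, RPS23). With them are the 2 large-subunit members with the lowest genotype ratios in the nuclei with the most counts (RPL31, RPL10). The last are 2 genes outside the family that the results return to (EEF1A1, TNNI3).
RPL35A, chr16:33056467-33056496, plus strand: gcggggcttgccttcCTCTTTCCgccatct
RPL15, chr14:18270972-18271001, minus strand: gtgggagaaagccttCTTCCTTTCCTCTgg
RPS23, chr13:90923107-90923136, plus strand: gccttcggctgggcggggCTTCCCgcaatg
RPL31, chr1:39367836-39367865, plus strand: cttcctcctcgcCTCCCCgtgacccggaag
RPL10, chrX:74270801-74270830, plus strand: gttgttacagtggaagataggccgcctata
EEF1A1, chr9:78481710-78481739, minus strand: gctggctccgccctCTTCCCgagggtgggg
TNNI3, chr7:4522514-4522543, minus strand: tggagctttgcacacggCTCCCCTCacacc
RPL15 had the longest stretch in capitals, 13 bases from the annotated start itself, and RPL35A had 8, as did TNNI3 outside the family. In RPL15, RPL35A, RPL31 and EEF1A1 the pyrimidines continued upstream in lower case, so their unbroken runs are longer than the capitals. RPL10 had no such run in this window.

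The libraries were shallow, and the control library was the larger in nuclei and in counts. They held 2933 nuclei with 422811 counts from Tbx5 G125R/+ atria and 3475 nuclei with 560272 counts from control atria. A nucleus had 144 counts on average (45 to 1164) in the Tbx5 G125R/+ library against 161 (55 to 1217) in the control library. The nuclei carry deposited cluster labels, of which 6 were named, but as attached they did not separate cell types: TTN, the giant sarcomere protein of heart muscle, had 126 counts per 10000 in the Tbx5 G125R/+ nuclei labelled fibroblast and 135 in those labelled CMC 1, and 94.4 and 102 in the control nuclei with these labels. The share of counts in ribosomal protein genes ran from 2.25 to 2.81% over the 6 labels in the Tbx5 G125R/+ library and from 2.77 to 3.32% in the control library. Nuclei are therefore described below by their counts of marker genes and not by label. Of the marker lists, 5 of 8 endothelial, 3 of 7 macrophage and 3 of 5 epicardial genes could be scored, and erythroid genes were not analysed here.

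Ribosomal protein genes took 10946 counts in the Tbx5 G125R/+ library, 2.59% of the total (2.54 to 2.64), and 16763 counts in the control library, 2.99% (2.95 to 3.04). A nucleus carried a median of 3 such counts in both libraries. No count of any member was seen in 302 Tbx5 G125R/+ nuclei (10.3%) and 346 control nuclei (9.96%), and the highest nuclei held 112 of 817 counts in the Tbx5 G125R/+ library against 95 of 968 in the control library.

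A few members carried much of these counts. RPS20, of the small subunit, was among the most counted, with 25.7 per 10000 counts in the Tbx5 G125R/+ library against 32.6 in the control library. RPL35A, a large-subunit protein that is mutated in some families with Diamond-Blackfan anaemia, had 23.5 per 10000 in Tbx5 G125R/+ nuclei and 25.5 in control nuclei. Together with RPL15, RPL8, RPL27A and RPS23 these made up 45.5% of the family's counts in Tbx5 G125R/+ nuclei and 45.1% in control nuclei. In Tbx5 G125R/+ nuclei RPL15 stood at 19.8 per 10000, RPL8, which lies at the large subunit's catalytic core, at 19.1, RPL27A at 17.3, and RPS23, whose residues line the decoding site, at 12.4. In control nuclei these genes stood at 23.3, 21.2, 17.7 and 14.6 per 10000. The order of these 6 was the same in both libraries. How reads were counted for each gene was not given in the sources used here, so these values compare libraries for 1 gene and do not rank the genes by molecules.

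Of the 54 members, 36 had a sum of at least 20 counts (22 of the large and 14 of the small subunit) and 29 had at least 100. Lower than those 6 were RPS4X, the X-linked form of eS4, with 387 counts in the Tbx5 G125R/+ library against 657 in the control library, RPL19 with 396 in Tbx5 G125R/+ nuclei and 566 in control nuclei, and RPL30 with 304 in Tbx5 G125R/+ nuclei and 472 in control nuclei. RPL11, which binds MDM2 when ribosome assembly is disturbed, had 294 counts in Tbx5 G125R/+ nuclei and 440 in control nuclei. RPS27A, made as a fusion with ubiquitin, had 219 counts in Tbx5 G125R/+ nuclei and 376 in control nuclei. RPS19, the gene most often mutated in Diamond-Blackfan anaemia, had 256 in Tbx5 G125R/+ nuclei and 386 in control nuclei. The 18 members with under 20 counts were close to empty, with 50 counts in all in the Tbx5 G125R/+ library against 56 in the control library.

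In 7 members a single count was seen over both libraries. Among them RPL12, RPL29, RPL41, RPL7A and RPL3L had it in the control library, and RPS6, the target of the S6 kinases, had it in the Tbx5 G125R/+ library. RPL3L, the form of RPL3 found in striated muscle, was thus at 0 of 422811 counts in Tbx5 G125R/+ nuclei, which allows up to 0.0710 per 10000, and at 1 of 560272 in control nuclei, while RPL3 had 285 counts in Tbx5 G125R/+ nuclei and 421 in control nuclei. The stalk protein RPLP0 had 4 counts in the Tbx5 G125R/+ library against 7 in the control library, and RPSA, the laminin-receptor protein of the small subunit, had the same numbers. The genes carry human Ensembl identifiers, and of 79 standard human ribosomal protein genes 27 were not analysed here and 1 of the other 52 falls outside the naming rule. The sums cover the remaining 51 and the paralogs RPL10L, RPL22L1 and RPL3L. RPL10 and RPL10L, and RPL22L1 and its parent RPL22, which was not analysed here, are close copies, and reads could have been split or merged between copies in the counting.

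**Figure D1:**
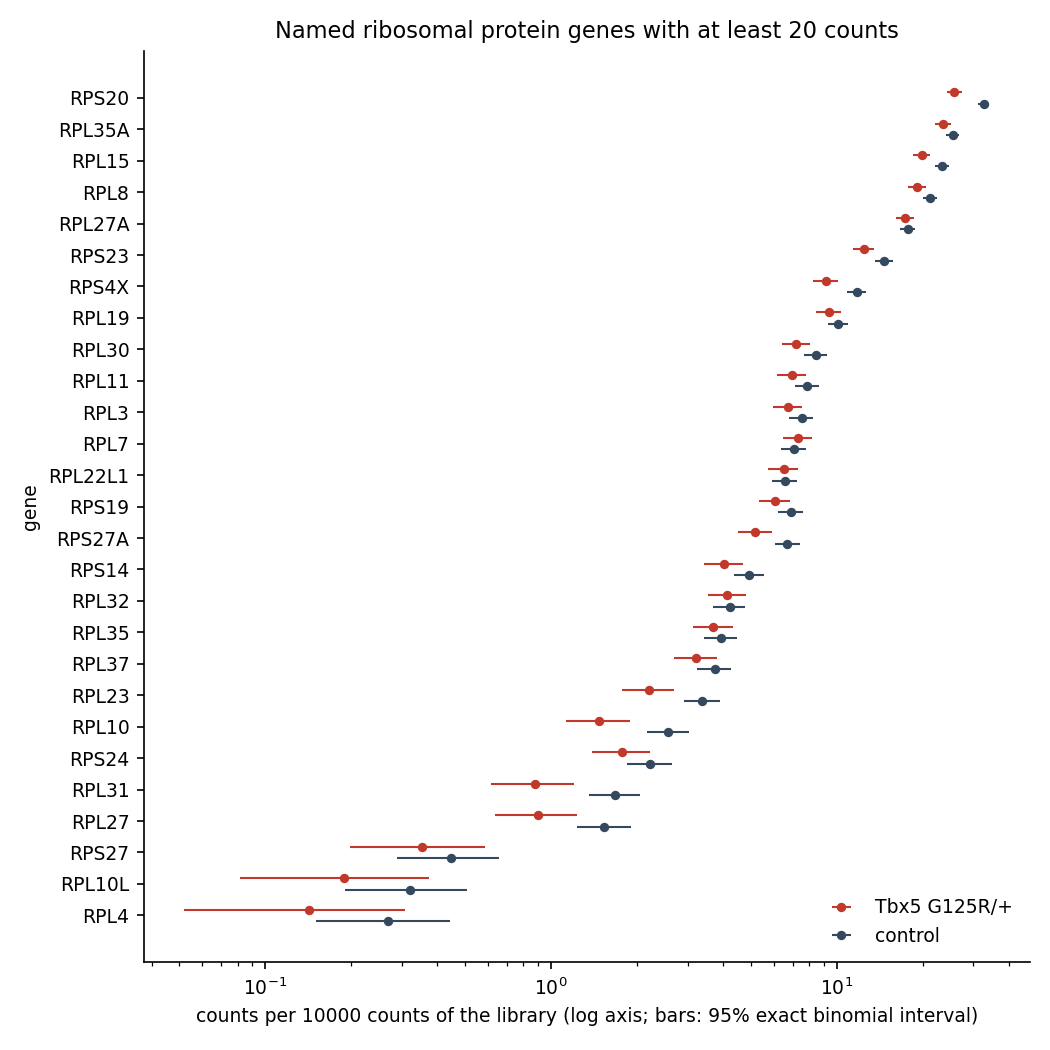
Counts per 10000 for 27 of the 36 members with 20 or more counts, those named in the text, on a log axis, with exact 95% intervals as bars, Tbx5 G125R/+ above control. RPS20 stands at 25.7 per 10000 in Tbx5 G125R/+ nuclei, against 32.6 in control nuclei, and of the members drawn 26 lie lower in the Tbx5 G125R/+ library and RPL7 lies higher.

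The large subunit took 57.5% of the family's counts (56.6 to 58.5) in Tbx5 G125R/+ nuclei and 55.9% (55.1 to 56.6) in control nuclei, a large-to-small ratio of 1.35 and 1.27. Over depth the large-subunit share stayed between 55.3 and 58.9% in the Tbx5 G125R/+ library and between 54.4 and 56.7% in the control library. With each nucleus thinned to 100 counts, which left 2051 Tbx5 G125R/+ and 2679 control nuclei, large- and small-subunit counts in a nucleus went together, with Pearson r = 0.44 in Tbx5 G125R/+ nuclei and 0.46 in control nuclei (Spearman rho 0.24 and 0.30). These coefficients describe nuclei of 1 library each, which share its depth and its RNA pool.

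Nuclei differed widely in how much of their RNA was ribosomal protein message. At 100 counts the mean was 2.32 ribosomal protein counts in Tbx5 G125R/+ nuclei and 2.73 in control nuclei, with variances of 5.99 and 8.18 and a maximum of 22 in both. At least 6 of 100 counts were found in 165 Tbx5 G125R/+ nuclei (8.04%) and 337 control nuclei (12.6%), and 10 or more in 53 (2.58%) and 99 (3.70%). At the other end, 18.0% of Tbx5 G125R/+ nuclei and 16.5% of control nuclei had none.

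Nuclei rich in these messages were also rich in EEF1A1 and TNNI3 counts. In nuclei with 6 or more ribosomal protein counts of 100, EEF1A1, which brings aminoacyl-tRNA to the ribosome, stood at 104 per 10000 in Tbx5 G125R/+ and 101 in control nuclei. In nuclei with 0 or 1 it stood at 20.2 in Tbx5 G125R/+ and 19.3 in control nuclei. TNNI3, the inhibitory troponin subunit of heart muscle, stood at 106 per 10000 in rich Tbx5 G125R/+ nuclei and 118 in rich control nuclei, and at 29.1 and 26.0 in the poor nuclei of these libraries. MALAT1, a long noncoding RNA retained in nuclear speckles, ran the other way, with 24.2 per 10000 in rich Tbx5 G125R/+ nuclei and 15.7 in rich control nuclei, against 70.2 and 62.4 in the poor nuclei. DDX5, an RNA helicase and one of the most counted genes here, was at 210 and 190 per 10000 in rich nuclei and at 407 and 341 in poor nuclei. These classes were cut from the ribosomal protein counts themselves, so the values are a description.

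**Figure D2:**
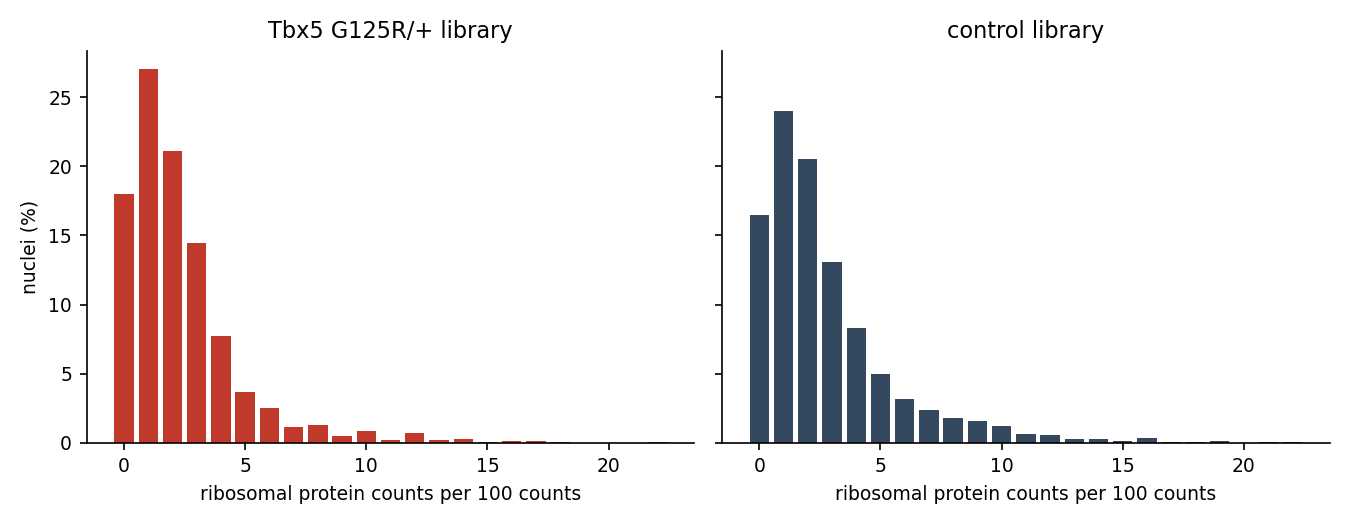
Percent of nuclei by the number of ribosomal protein counts among 100 thinned counts, Tbx5 G125R/+ (2051 nuclei) and control (2679 nuclei). Nuclei with 6 or more make up 8.04% of the Tbx5 G125R/+ nuclei and 12.6% of the control nuclei, and the longest tails reach 22 in both.

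High counts of 2 heart muscle transcripts gave opposite contrasts, according to which one was counted. Nuclei were grouped at 100 counts by TNNI3, whose message is short and mostly cytoplasmic, and by TTN, which has the longest coding sequence known in mammals. TTN and TNNI3 counts were left out of the totals. With 2 or more TNNI3 counts, ribosomal protein genes took 4.94% of counts in 143 Tbx5 G125R/+ nuclei, against 2.05% in 1459 nuclei with none, a log2 ratio of 1.27 (1.14 to 1.39). The control library gave 5.83% in 236 nuclei with 2 or more, against 2.29% in 1904 with none, a log2 ratio of 1.35 (1.26 to 1.43). Nuclei with exactly 1 TNNI3 count lay between, at 2.52% in 449 Tbx5 G125R/+ nuclei and 3.11% in 539 control nuclei. Before thinning, nuclei with 2 or more TNNI3 counts had a median depth of 166 in the Tbx5 G125R/+ library, where those with none had 148, and of 184.5 in the control library, where those with none had 154.

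The members with enough counts were higher together in TNNI3-high nuclei. Of 1459 genes with at least 20 counts in it, 11.4% were higher by at least 1.5-fold in both libraries. Of the 26 members among them, 26 were above 0 on the mean of both libraries and 24 (16 of 17 large-subunit and 8 of 9 small-subunit members) were higher by at least 1.5-fold in both, with a median log2 ratio of 1.32, against -0.23 over all 1459 genes. RPL3, which sits beside the peptidyl transferase centre, had the largest mean ratio: it stood at 14.7 per 10000 in TNNI3-high and 4.98 in TNNI3-negative Tbx5 G125R/+ nuclei, and at 22.4 and 5.49 in control nuclei. RPS19 was at 16.9 per 10000 against 4.49 in Tbx5 G125R/+ nuclei and at 12.3 against 4.91 in control nuclei.

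The members with the smallest mean ratios were RPS14 and RPL22L1, the paralog of RPL22, and each passed 1.5-fold in 1 library only. RPS14, whose human gene lies in the region deleted in the 5q- syndrome, was at 8.79 per 10000 against 2.90 in Tbx5 G125R/+ nuclei (12 and 42 counts) and at 3.96 against 3.86 in control nuclei (9 and 73 counts). RPL22L1 was at 8.79 against 6.77 in Tbx5 G125R/+ nuclei and at 13.2 against 5.23 in control nuclei. RPL11, RPS23 and RPL7 followed, with mean log2 ratios of 1.01 to 1.08, while RPL32 and RPS24 stood near the top at 1.60 and 1.58.

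Some genes of the translation machinery and most cytoplasmic muscle transcripts tested were higher in TNNI3-high nuclei too. EEF1A1 was at 56.4 per 10000 in TNNI3-high nuclei against 26.7 in TNNI3-negative ones in the Tbx5 G125R/+ library, and at 74.7 against 30.9 in the control library. Of 15 translation factors tested, 7 were higher by at least 1.5-fold in both libraries, against 11.4% of all genes. On the mean of both libraries 11 of the 15 were above 0 and 4 were below, among them EIF2S2 at -0.39 and the poly(A)-binding protein PABPC1 at -0.38. All 3 tested genes of the list of other TOP or ribosome-bound genes, FAU, TPT1 and NPM1, were higher by at least 1.5-fold in both. The 6 cytoplasmic muscle transcripts tested, such as the small heat shock protein CRYAB (mean log2 ratio 2.02) and the atrial light chain MYL4 (1.79), were all above 0, with a median of 1.87, and 5 of them were higher by at least 1.5-fold in both libraries. MALAT1 was lower in TNNI3-high nuclei, at 44.0 per 10000 against 62.7 in the Tbx5 G125R/+ library and 40.9 against 55.5 in the control library. TNNI3 was also counted beside markers of another cell type: nuclei with a fibroblast marker and fewer than 3 TTN and 2 TNNI3 counts had 24.1 TNNI3 counts per 10000 in the Tbx5 G125R/+ library against 17.2 in the control library. How much of the TNNI3 and ribosomal protein counts was free RNA of the suspension was not tested.

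At 3 or more TTN counts of 100 the order was the reverse. Here ribosomal protein genes took 1.73% of counts in 344 Tbx5 G125R/+ nuclei, against 2.36% in 1449 nuclei with none, a log2 ratio of -0.45 (-0.58 to -0.32). Among control nuclei the shares were 2.06% in 297 with 3 or more and 2.65% in 2057 with none (log2 ratio -0.36, interval -0.49 to -0.24). Nuclei with 1 or 2 TTN counts stood above both, at 3.09% in Tbx5 G125R/+ nuclei and 4.08% in control nuclei, so the relation was not monotonic. Before thinning, nuclei with at least 1 TTN count were above those with none in all 5 depth bins of the control library and in the 3 bins under 150 counts of the Tbx5 G125R/+ library. At 100 to under 150 counts they stood at 3.38% against 2.25% in Tbx5 G125R/+ nuclei and at 4.12% against 2.32% in control nuclei. At 250 counts or more they stood at 2.41% against 3.26% in Tbx5 G125R/+ nuclei and at 4.05% against 3.71% in control nuclei. TTN-high nuclei were deeper, with median depths of 234.5 and 255 before thinning in the Tbx5 G125R/+ and control libraries, against 137 and 147 without TTN, and 84 Tbx5 G125R/+ and 114 control nuclei lay just under the threshold with 2 TTN counts, against 95 and 82 just on it with 3.

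The TTN contrast did not single out the family. Of 1580 genes tested, 26.3% were lower by at least 1.5-fold in both libraries and 12.7% were higher, while of 27 members 3 were lower (RPL35, RPL37 and RPL19, all of the large subunit) and 0 were higher. The members' median log2 ratio was -0.38, against -0.36 over all genes tested. The lowest mean was that of RPL10, an X-linked gene whose protein joins the large subunit late in its assembly, with 1 count in TTN-high and 26 in TTN-negative Tbx5 G125R/+ nuclei and 6 and 48 in control nuclei, a contrast of 0.31 against 1.80 per 10000 in the Tbx5 G125R/+ library and 2.14 against 2.34 in the control library. RPS27A had the highest mean, at 5.87 against 4.08 per 10000 in Tbx5 G125R/+ nuclei and 4.99 against 5.51 in control nuclei. EEF1A1 stood at 19.1 against 32.7 in the Tbx5 G125R/+ library and at 20.7 against 35.9 in the control library, whereas the 6 cytoplasmic muscle transcripts tested were all higher in TTN-high nuclei and MALAT1 was at 102 against 51.8 in Tbx5 G125R/+ nuclei and at 91.7 against 47.2 in control nuclei.

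Both contrasts held when the classes were crossed. Among TTN-high nuclei, those with 2 or more TNNI3 counts had 2.95% ribosomal protein counts in 48 Tbx5 G125R/+ nuclei and 4.57% in 32 control nuclei, against 1.497% in Tbx5 G125R/+ and 1.71% in control nuclei where TNNI3 was 0. The highest shares were in nuclei with 2 or more TNNI3 and fewer than 3 TTN counts, 5.90% in 95 Tbx5 G125R/+ nuclei and 6.02% in 204 control nuclei. Nuclei with neither in quantity, TTN under 3 and TNNI3 at 0, were at 2.14% in the Tbx5 G125R/+ library against 2.35% in the control library. Within every TTN class TNNI3-high nuclei were thus above TNNI3-negative ones, and within every TNNI3 class TTN-high nuclei were below the others, in both libraries.

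**Figure D3:**
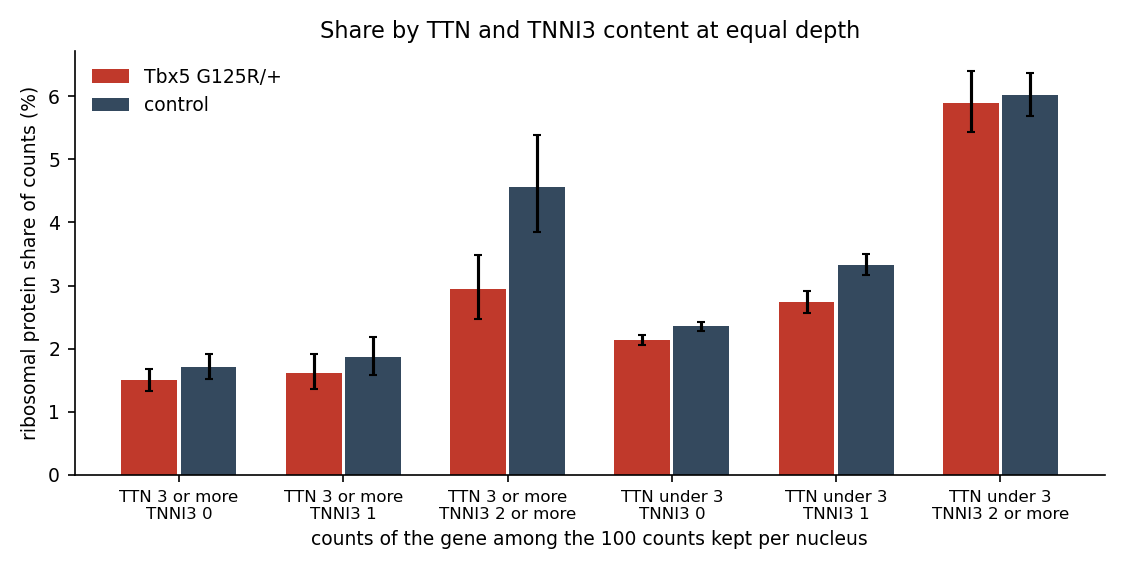
Percent of counts in ribosomal protein genes in nuclei thinned to 100 counts, for the 6 crossed classes of TTN and TNNI3 counts, with bars from 0, exact 95% intervals and Tbx5 G125R/+ left of control. The highest bars, at 5.90% in Tbx5 G125R/+ and 6.02% in control nuclei, have 2 or more TNNI3 and fewer than 3 TTN counts, and the lowest, at 1.497% and 1.71%, have 3 or more TTN counts and no TNNI3.

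Nuclei marked by non-muscle genes differed in their shares. Among nuclei with fewer than 3 TTN and 2 TNNI3 counts, those with a fibroblast marker had 2.05% ribosomal protein counts in 436 Tbx5 G125R/+ nuclei and 2.32% in 652 control nuclei. An endothelial marker went with 2.44% in 121 Tbx5 G125R/+ nuclei and 3.05% in 159 control nuclei, and an epicardial marker with 3.28% in 77 and 3.62% in 94 nuclei. Nuclei with no count of any marker, 497 in the Tbx5 G125R/+ library against 659 in the control library, stood at 2.06% and 2.18%. Macrophage and mural markers were seen in few nuclei. A macrophage marker went with 1.71% in 7 Tbx5 G125R/+ nuclei and 1.23% in 9 control nuclei, and a mural marker with 1.40% in 15 Tbx5 G125R/+ nuclei and 1.503% in 16 control nuclei. Epicardial-marker nuclei were the highest of these classes in both libraries.

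The share also changed with depth, the total counts of a nucleus. In nuclei with under 75 counts ribosomal protein genes took 5.59% of counts in 381 Tbx5 G125R/+ nuclei and 4.77% in 284 control nuclei. In Tbx5 G125R/+ nuclei the next bins, 75 to under 100, 100 to under 150 and 150 to under 250 counts, were at 2.94%, 2.38% and 2.27%. In control nuclei they were at 2.86%, 2.49% and 2.57%. In nuclei with 250 counts or more the libraries parted: the share was 2.45% in 262 Tbx5 G125R/+ nuclei and 3.84% in 438 control nuclei. The shallowest nuclei were high in both libraries. From 150 to under 250 counts to 250 or more the pooled share was higher again in the control library (intervals 2.50 to 2.64% and 3.75 to 3.94%). In the Tbx5 G125R/+ library the pooled shares differed by little (2.19 to 2.35% and 2.353 to 2.56%). There the mean over nuclei was 2.27% in the lower and 2.28% in the upper bin, and the median nucleus went down, from 1.81 to 1.39%. In control nuclei the mean went from 2.55 to 3.58% and the median from 1.87 to 2.24%.

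Shallow nuclei were rich in some other messages as well, muscle markers among them. Below 75 counts TNNI3 stood at 105 per 10000 in Tbx5 G125R/+ nuclei and 95.1 in control nuclei, against 34.3 and 35.3 from 100 to under 150 counts, and EEF1A1 at 70.2 and 54.6, against 30.8 and 31.8. TTN was at 53.4 and 29.2 below 75 counts, against 30.7 and 23.0 from 100 to under 150. The cardiomyocyte marker MYH6 was at 67.1 and 45.4, against 19.8 and 21.1. MALAT1 was at 30.5 and 35.7 below 75 counts and at 50.5 and 50.04 from 100 to under 150. A share over 10% was reached by 82 Tbx5 G125R/+ nuclei (21.5%) and 38 control nuclei (13.4%) below 75 counts. In the deeper bins the rate ran from 1.96 to 3.99% in Tbx5 G125R/+ nuclei and from 2.01 to 5.48% in control nuclei. Few counts make up 10% of a shallow nucleus, so counting error weighs more there, and its part was not tested. Over all depths nuclei with a share over 10% numbered 148 in the Tbx5 G125R/+ library, where they held 18.0% of the family's counts, and 134 in the control library, where they held 15.7%.

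Of 1035 genes tested between nuclei with 250 counts or more and nuclei with under 75, 27.8% were lower by at least 1.5-fold in the deep nuclei of the Tbx5 G125R/+ library and 20% in those of the control library. All 24 members tested were lower by that much in the Tbx5 G125R/+ library (median log2 ratio -1.23, against 0.05 over all genes) and 3 were in the control library (median -0.44, against -0.05). The 3 were RPS19, RPS27A and RPS4X, of the small subunit, and they were the members lower in both libraries, where the background was 8.79%. RPS20 stood at 22.3 per 10000 in deep and 62.3 in shallow Tbx5 G125R/+ nuclei and at 45.0 and 60.5 in control nuclei. The summed log2 ratio was -1.19 (-1.29 to -1.09) in the Tbx5 G125R/+ library and -0.31 (-0.41 to -0.21) in the control library.

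**Figure D4:**
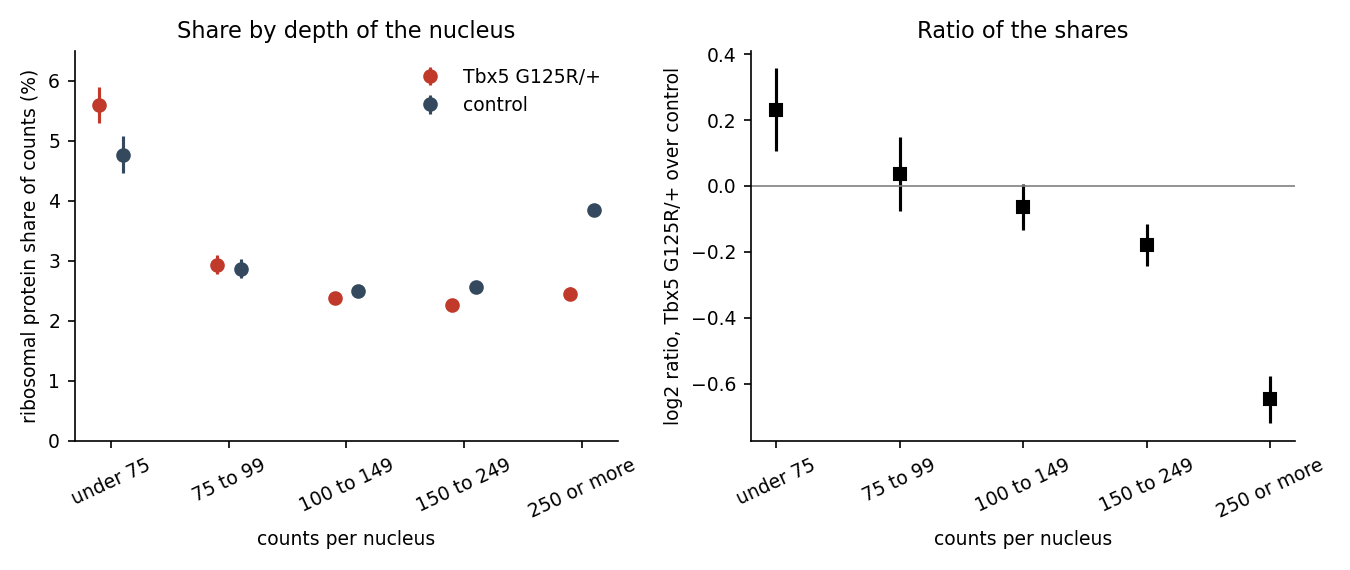
Left, percent of counts in ribosomal protein genes by the number of counts in a nucleus, for Tbx5 G125R/+ and control nuclei, and right, the log2 ratio of Tbx5 G125R/+ over control in each bin, both with exact 95% intervals as lines. The shares are highest below 75 counts (Tbx5 G125R/+ 5.59%, control 4.77%) and part at 250 or more (2.45% and 3.84%), and the ratio goes down over the 5 bins to -0.65.

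Between the genotypes the family was lower in Tbx5 G125R/+ nuclei, with a log2 ratio of the summed counts of -0.21 (-0.24 to -0.17). Large-subunit members summed to -0.17 (-0.21 to -0.12) and small-subunit members to -0.26 (-0.32 to -0.21). Of the 36 members with at least 20 counts, 35 were below 0 and RPL7 alone was above, at 0.05 (308 counts in Tbx5 G125R/+ nuclei and 395 in control nuclei). The members' median log2 ratio was -0.24, against -0.03 over all 4028 genes tested. Because all counts are shares of the same totals, the members are not independent of each other.

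At 1.5-fold, 6 members were lower in Tbx5 G125R/+ nuclei, where 9.48% of all genes were, and 0 were higher, where 6.9% of all genes were. All 6 belonged to the large subunit. RPL31 had 37 counts in Tbx5 G125R/+ nuclei and 94 in control nuclei, with a log2 ratio of -0.93 (-1.53 to -0.38). RPL10 had 62 counts in Tbx5 G125R/+ nuclei and 144 in control nuclei, at -0.80 (-1.26 to -0.37). RPL27 had 38 in Tbx5 G125R/+ nuclei and 86 in control nuclei, at -0.76 (-1.36 to -0.21). RPL23, which like RPL11 binds MDM2, had 93 counts in Tbx5 G125R/+ nuclei and 189 in control nuclei, at -0.61 (-0.99 to -0.25). RPL4 (6 counts in Tbx5 G125R/+, 15 in control nuclei) and RPL10L, a retrocopy of RPL10 (8 in Tbx5 G125R/+ and 18 in control nuclei), had intervals that included 0. Members with many counts differed by less, from -0.34 for RPS20 (-0.45 to -0.23) to -0.03 for RPL27A (-0.17 to 0.11), and RPL22L1 and RPL32 stood at -0.01 and -0.02.

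Other genes of translation lay on both sides of 0. EEF1A1 had 1400 counts in Tbx5 G125R/+ nuclei and 2216 in control nuclei, with a log2 ratio of -0.26 (-0.35 to -0.16). EIF1, which helps to choose the start codon, had 1740 counts in Tbx5 G125R/+ nuclei and 2823 in control nuclei, at -0.29 (-0.38 to -0.21). TPT1, a TOP message that encodes a growth-related calcium-binding protein, had 398 in Tbx5 G125R/+ nuclei and 628 in control nuclei, at -0.25. Of 27 translation factors tested 18 were below 0, against 2155 of the 4028 genes tested in all, and 9 were above, among them EIF3M at 0.23 and EIF4G2 at 0.13. By at least 1.5-fold 2 of the 27 were lower, where 9.48% of all genes were, the helicase EIF4A1 (12 counts in Tbx5 G125R/+, 39 in control nuclei) and the release factor ETF1 (56 in Tbx5 G125R/+ and 120 in control nuclei). Below 0 were also 4 of 5 other TOP or ribosome-bound genes, 8 of 11 ribosome biogenesis genes and 7 of 8 cytoplasmic muscle transcripts, with medians of -0.22, -0.15 and -0.22. TNNI3 was among the last, with 1919 counts in Tbx5 G125R/+ nuclei and 2928 in control nuclei (-0.20), while MALAT1 was above 0, at 0.22.

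Markers of cell types went both ways. Of 8 cardiomyocyte markers 6 were above 0, with a median of 0.16, and the highest were TTN at 0.43 and the calcium release channel RYR2 at 0.49. The 2 below 0 were MYL4 at -0.47 and TNNI3 at -0.20, and 0 of the 8 were higher or lower by at least 1.5-fold. Nuclei with 3 or more TTN counts of 100 made up 16.8% of the thinned Tbx5 G125R/+ nuclei and 11.1% of the thinned control nuclei. Of 7 fibroblast markers tested 5 were below 0, with the collagen gene COL1A1 at -0.55 and the transcription factor TCF21 at -0.38, and DCN, which encodes the proteoglycan decorin, was higher by at least 1.5-fold, at 0.79 (38 counts in Tbx5 G125R/+ nuclei against 29 in control nuclei). Fewer nuclei of a type and less RNA of a type per nucleus cannot be told apart by these sums, and the part of these markers in the ribosomal protein difference was not tested.

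The genotype difference lay mostly in the deepest nuclei. Nuclei with 250 counts or more held 19.6% of the family's counts in the Tbx5 G125R/+ library against 35.0% in the control library. Their summed log2 ratio was -0.65 (-0.72 to -0.58). Without them the shares were 2.62% in 2671 Tbx5 G125R/+ nuclei and 2.67% in 3037 control nuclei, or -0.03 on the log2 scale (-0.07 to 0.01). Below 75 counts the ratio had the other sign, 0.23 (0.11 to 0.36), and the bins between gave 0.04, -0.06 and -0.18 with rising depth. The mean over nuclei of the share in each nucleus, which gives a shallow nucleus the weight of a deep one, was 2.89% in Tbx5 G125R/+ nuclei and 2.90% in control nuclei.

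In the nuclei with 250 counts or more every tested member was lower in the Tbx5 G125R/+ library. Of 1888 genes tested there, 17.7% were lower by at least 1.5-fold and 12.3% were higher. Of 31 members, 31 were below 0 and 21 were lower by at least 1.5-fold (13 of 20 large-subunit and 8 of 11 small-subunit members), with a median of -0.69, against -0.02 over all genes. RPS20 had 195 counts in Tbx5 G125R/+ nuclei and 686 in control nuclei, or 22.3 and 45.0 per 10000, a log2 ratio of -1.01. The range ran from RPL31 at -2.27 (3 counts in Tbx5 G125R/+, 29 in control nuclei) and RPL10 at -1.95 (7 in Tbx5 G125R/+ and 50 in control nuclei) to RPL11 at -0.35 (67 in Tbx5 G125R/+ and 150 in control nuclei).

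EEF1A1 was lower in these nuclei as well, with 289 counts in Tbx5 G125R/+ nuclei and 834 in control nuclei and a log2 ratio of -0.72. Muscle genes went both ways. Of 8 cytoplasmic muscle transcripts tested 6 were below 0, 2 were lower by at least 1.5-fold (MYL4 and CKM) and 1 was higher (TNNT2), with TNNI3 at -0.52 (475 in Tbx5 G125R/+ and 1194 in control nuclei), MYL4 at -0.88, CKM at -0.59, TNNC1 at -0.11, TPM1 at 0.02 and TNNT2 at 0.81 (11 counts in each library). Of 7 cardiomyocyte markers tested 5 were above 0 and 2 below, with a median of 0.19. TTN, with 2924 counts in Tbx5 G125R/+ nuclei and 3387 in control nuclei, and MALAT1, with 715 in Tbx5 G125R/+ nuclei and 831 in control nuclei, both stood at 0.59. The part of muscle content in the difference was not tested, and the values within TNNI3 classes were these. With no TNNI3 count the share of the deep nuclei was 1.57% in Tbx5 G125R/+ nuclei and 2.09% in control nuclei (log2 ratio -0.41), with at least 1 it was 2.96% in Tbx5 G125R/+ nuclei and 4.61% in control nuclei (-0.64), and in the 28 Tbx5 G125R/+ and 58 control nuclei with neither TTN nor TNNI3 it was 1.98% and 2.60% (-0.39). The deep nuclei thus differed in each of these classes. Nuclei of all depths without TTN and TNNI3, 1505 Tbx5 G125R/+ and 1808 control, had 2.22% and 2.18%, a log2 ratio of 0.03 (-0.03 to 0.09). That pool mixes depths: its bins under 250 counts gave 0.12, 0.11, -0.02 and 0.02 with rising depth. Thinned to 100 counts, nuclei with neither gene had 2.10% in 1109 Tbx5 G125R/+ and 2.30% in 1564 control nuclei. Their log2 ratio was -0.13 (-0.21 to -0.06). Such nuclei have at least 100 counts and can have held TTN or TNNI3 counts before thinning.

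The members split in nuclei with fewer counts. Under 250 counts, 10.4% of 3580 genes were lower and 6.84% higher by at least 1.5-fold in Tbx5 G125R/+ nuclei. Of 35 members 4 were lower by that much (RPL10L, RPL31, RPL27 and RPS27, which had 12 counts in Tbx5 G125R/+ nuclei against 23 in control nuclei) and 0 were higher, with a median of -0.07, against -0.04 over all genes. Above 0 were 11 of 21 large-subunit and 2 of 14 small-subunit members. RPL7 led with 7.36 per 10000 in Tbx5 G125R/+ nuclei and 6.11 in control nuclei, and RPL32 followed with 4.26 in Tbx5 G125R/+ nuclei and 3.56 in control nuclei. Under 75 counts, where 11.9% of 402 genes were higher and 12.9% lower, 15 of 23 members were above 0, 2 were higher by at least 1.5-fold (RPL19 with 57 counts in Tbx5 G125R/+, 29 in control nuclei, RPL32 with 21 in Tbx5 G125R/+ and 8 in control nuclei) and 1 was lower. RPL31 and RPL27 were lower by at least 1.5-fold both under 250 counts and at 250 counts or more, RPL27 with 28 counts in shallower Tbx5 G125R/+ nuclei against 52 in control nuclei, and with 10 in the deeper Tbx5 G125R/+ nuclei against 34 in control nuclei. The log2 intervals of RPL27 included 0 in both, at -1.33 to 0.08 and -2.14 to 0.09. Those of RPL31 ran from -1.30 to -0.03 and from -4.83 to -0.78.

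**Figure D5:**
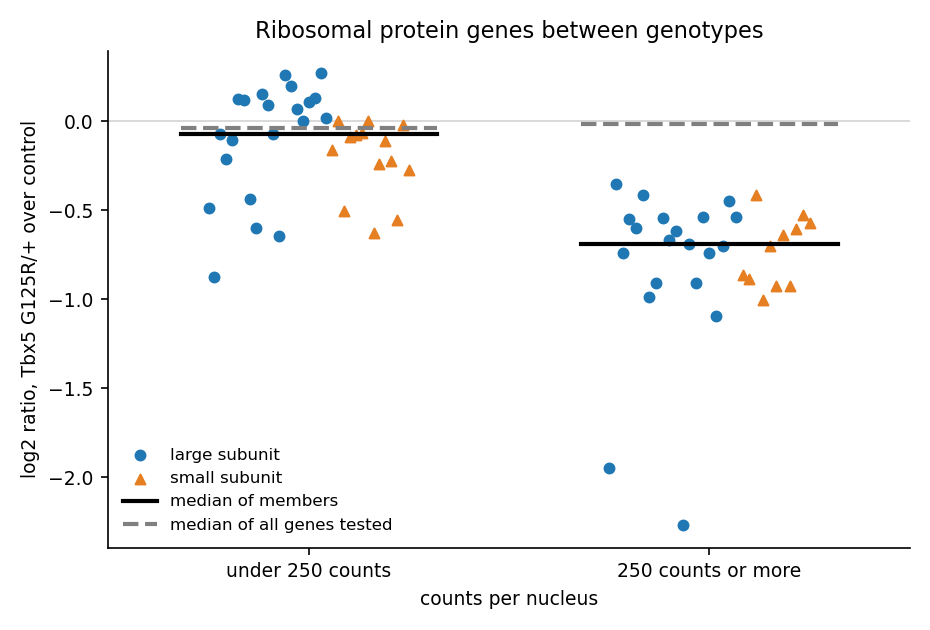
log2 ratio of Tbx5 G125R/+ over control for each tested member, as circles for the large and triangles for the small subunit, in nuclei with under 250 counts and in nuclei with 250 counts or more, with solid lines at the members' median and dashed lines at the median of all genes tested. In the deep nuclei all 31 members lie below 0, with a median of -0.69, and in the shallower nuclei they lie on both sides of 0, with a median of -0.07.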

How the data were processed

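The authors deposited a table of whole-number counts per gene and nucleus for each library, with nuclei numbered and cluster labels attached. Per the labels, nuclei needed at least 1000 reads, yet 1 nucleus in each library had 1000 counts, so the counts are not those reads. The submitters' processing notes name mm10, while the genes carry human Ensembl identifiers and symbols. The aligner, like the counter, was not given in the sources used here. A deposited table of corrected p-values and fold changes per cluster was not used, apart from the 6 cluster names in its header. Sequences and positions are from RefSeq, GRCm38.p6, matched by symbol, which 53 members had.

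Members were summed per library, depth bin and marker class. Ratios are log2 of shares of total counts with 0.5 added to each sum, for genes with at least 20 counts over the nuclei compared, and 1.5-fold was called. For TTN, TNNI3 and marker classes each nucleus was thinned to 100 counts (seed 20), which left out 882 Tbx5 G125R/+ and 796 control nuclei, and for these classes and for depth by TTN or TNNI3 both genes were left out of the totals. Intervals are exact, binomial for shares and conditional on 2 Poisson counts for ratios. Counts have no replicate library, so there is no test. No doublet caller was run. Barcodes were not compared since nuclei are numbered, and 0 count profiles were shared by both libraries. Named genes were the 25 most counted members, the 5 highest and 5 lowest ratios of each comparison, RPL3L and up to 4 genes per list. Some members, and the alternatives that leave out the member with the most counts in the family or in a subunit, are not reported here one by one, but the sums hold all members. Members named for the depth bins, RPS27 among them, were chosen after their values were seen. The members and lists were chosen with earlier results of these data known. The scripts were tested on simulated data. Python 3.11.15, numpy 2.4.6, scipy 1.17.1, pandas 2.3.3 and matplotlib 3.10.9 were used.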

Additional observations from a re-analysis of the deposited data

Results flagged for a closer look

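The genotype ratio of the summed ribosomal protein counts changed sign with the depth of the nuclei. It was 0.23 in nuclei with under 75 counts, -0.18 in nuclei with 150 to under 250 counts and -0.65 in nuclei with 250 counts or more (log2, Tbx5 G125R/+ over control). With 1 library per genotype the difference between these bins was not tested.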

How the results depend on the processing

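Over 75 alternative values, 37 stayed within counting error or 1.5 times a count, 36 moved beyond it and 2 changed sign. Those by depth, by mix of nuclei and by muscle content between the genotypes were chosen after seeing the data. The shares for Tbx5 G125R/+ and control nuclei became 2.64 and 3.04% without MALAT1, mitochondrial genes and TTN in the total, 2.89 and 2.90% as a mean over nuclei, 2.36 and 2.94% in nuclei with at least 100 counts, and 2.52 and 2.92% without paralogs. The genotype log2 ratio of the sum was -0.17 with median-of-ratios scaling, which shifts every gene by 0.04, -0.0025 from means over nuclei, -0.027 under 250 counts, -0.65 at 250 counts or more, -0.28 at 75 counts or more, -0.087 at an equal mix of 5 depth bins, -0.17 at an equal mix of 6 TTN and TNNI3 classes and, with the other sign, 0.026 in nuclei without TTN and TNNI3 counts. The members' median was -0.20 with that scaling, -0.072 under 250 counts and -0.69 at 250 counts or more, where 21 members were lower by 1.5-fold. With a minimum of 1 count, 13 of 54 members were lower and 6 higher, most of them on few counts. The share of all genes past 1.5-fold at that minimum was not counted, so these numbers have no background beside them.

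Deep over shallow nuclei gave -1.35 in Tbx5 G125R/+ and -0.44 in control nuclei as means over nuclei. Thinned to 100 counts, where only nuclei from 100 counts on can enter, 250 or more over 100 to under 150 gave -0.16 and, with the other sign, 0.55. This alternative changed the reference bin as well as the thinning. Without thinning these bins gave 0.04 in Tbx5 G125R/+ and 0.63 in control nuclei. The TTN contrast was -0.61 and -0.60 without thinning, and -0.56 in control nuclei thinned to 60. The TNNI3 contrast was 1.70 and 1.53 thinned to 60, 1.001 and 1.25 thinned to 150, 1.98 and 1.94 without thinning, and 1.14 in Tbx5 G125R/+ nuclei with another random seed. The large-to-small ratio was 1.29 and 1.21 without paralogs. The cause of these shifts was not tested. No paired analysis was possible because each genotype has 1 library. At 144 and 161 counts per nucleus on average, single members cannot be read in single nuclei and members with under 20 counts carry no ratio.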
